A study of Mus musculus with 3 samples.

Results

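The genes described here encode the enzymes and regulators of sterol and fatty acid synthesis, followed through single cells of mouse abdominal skin dermis. The list holds 35 of the 28693 genes in the files, chosen by symbol from the pathway but with earlier results of these data known. All 35 symbols were present: 17 genes of the sterol branch, 15 of the fatty acid branch (desaturation, elongation and esterification included) and 3 regulators. The mice of all 3 libraries were C57BL/6, 8 to 12 weeks old, and carried Col1a2creERT2; R26H2B EGFP, that is, a recombinase that tamoxifen switches on in cells using the Col1a2 promoter, and a nuclear green fluorescent reporter. The NP library was from a non-pregnant control given tamoxifen for 3 days and taken 48 days later. Skin of pregnant mice at gestation day 16 gave the dpc16 library, and skin at post partum day 42 gave dpp42, both with tamoxifen during pregnancy. Each group was 1 library, the labels do not say how many animals went into it, and tamoxifen timing cannot be told apart from stage.

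Sterol synthesis joins acetyl-CoA units into mevalonate, turns mevalonate into isoprenoid diphosphates, condenses these to squalene and closes squalene to lanosterol, which a further series of enzymes converts to cholesterol. Fatty acid synthesis starts from the same acetyl-CoA, and its products are elongated, desaturated and esterified into triglycerides, wax esters and sterol esters. Both branches are controlled by the membrane-bound transcription factors SREBP (genes Srebf1 and Srebf2), which Insig1 holds back in the endoplasmic reticulum when sterols are plentiful. In skin, sebocytes fill with such lipids and burst to release sebum, while the upper epidermis makes the cholesterol, long-chain fatty acids and ceramides of the water barrier.

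SREBP factors are known to act at promoters together with NF-Y, which binds the CCAAT box. RefSeq promoters of GRCm38.p6, from 250 bases before to 50 bases after a start site, were matched for 28 of the 35 genes. Fdps, Fdft1, Sqle, Scd1, Scd2, Fads1 and Dgat2 had no entry. Searched on both strands, the letters CCAAT were found in a promoter of 24 of 28 genes, or 85.7%, against 41.1% of 27025 genes with a promoter of the same length. They were present for 14 of 14 sterol genes, 7 of 11 fatty acid genes and 3 of 3 regulators. The sterol regulatory element TCACNCCAC was found for Hmgcs1 alone, 137 bases before its start, and in 1.44% of all genes. The E-box CACGTG was found for 5 of 28 genes (17.9%, against 8.09% of all genes), and none of the 3 motifs contains another. Promoters of 5 genes are shown, picked after their values were seen: Hmgcs1 for its sterol regulatory element, Mvk for the most CCAAT boxes, and Msmo1, Fasn and Elovl6 as genes that were lower in 1 stage below, the last without a CCAAT box. Capitals mark CCAAT, its reverse complement ATTGG and, in Hmgcs1, the sterol regulatory element. The first is that of Hmgcs1 (chr13:119690101-119690400, plus strand), the second that of Mvk (chr5:114444019-114444318, plus strand), and the third that of Msmo1 (chr8:64733529-64733828, minus strand). The fourth is that of Fasn (chr11:120824498-120824797, minus strand) and the last that of Elovl6 (chr3:129532136-129532435, plus strand).
Hmgcs1: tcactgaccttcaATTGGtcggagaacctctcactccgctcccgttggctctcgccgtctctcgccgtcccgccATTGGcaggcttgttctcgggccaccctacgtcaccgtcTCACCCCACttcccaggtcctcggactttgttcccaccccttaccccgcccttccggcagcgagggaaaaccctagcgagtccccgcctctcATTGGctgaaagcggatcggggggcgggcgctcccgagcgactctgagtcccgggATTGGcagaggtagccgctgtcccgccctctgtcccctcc
Mvk: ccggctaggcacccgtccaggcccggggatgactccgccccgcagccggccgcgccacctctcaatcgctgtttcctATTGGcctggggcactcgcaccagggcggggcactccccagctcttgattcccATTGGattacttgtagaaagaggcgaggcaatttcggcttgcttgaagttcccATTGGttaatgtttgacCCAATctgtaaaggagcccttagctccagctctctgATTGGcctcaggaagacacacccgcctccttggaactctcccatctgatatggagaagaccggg
Msmo1: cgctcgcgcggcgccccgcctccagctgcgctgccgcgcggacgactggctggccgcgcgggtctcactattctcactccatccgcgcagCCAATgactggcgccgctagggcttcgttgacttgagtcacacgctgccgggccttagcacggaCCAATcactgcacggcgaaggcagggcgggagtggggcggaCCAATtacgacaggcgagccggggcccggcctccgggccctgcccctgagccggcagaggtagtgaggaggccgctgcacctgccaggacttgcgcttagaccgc
Fasn: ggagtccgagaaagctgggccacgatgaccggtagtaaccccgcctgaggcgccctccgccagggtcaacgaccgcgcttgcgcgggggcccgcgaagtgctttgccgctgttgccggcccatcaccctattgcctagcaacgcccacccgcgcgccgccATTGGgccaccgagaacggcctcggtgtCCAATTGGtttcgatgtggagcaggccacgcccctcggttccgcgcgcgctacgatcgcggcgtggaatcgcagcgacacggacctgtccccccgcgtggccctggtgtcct
Elovl6: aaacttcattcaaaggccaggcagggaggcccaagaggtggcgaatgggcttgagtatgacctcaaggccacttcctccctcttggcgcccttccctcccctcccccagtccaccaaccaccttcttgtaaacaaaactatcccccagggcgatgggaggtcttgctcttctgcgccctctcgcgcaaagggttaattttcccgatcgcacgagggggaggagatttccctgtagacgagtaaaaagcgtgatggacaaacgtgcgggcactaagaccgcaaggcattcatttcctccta
Hmgcs1 holds 4 CCAAT boxes, Mvk 5, Msmo1 and Fasn 3 each and Elovl6 none. In Fasn the stretch CCAATTGG was counted once on each strand, as overlapping boxes. A match of letters is a description of the window and not a shown binding site.

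After a filter on detected genes and mitochondrial UMIs, 1289 NP, 3652 dpc16 and 1081 dpp42 cells were kept, with median depths of 3119, 4300.5 and 3252 UMIs (unique molecular identifiers, each counting 1 captured molecule). Between 6 and 11 barcodes of each library also occurred in another one. Cells were clustered without any of the 35 genes and without 49 other genes of the same pathways, and clusters were named from markers that hold none of them. Although the sample is labelled dermis, keratinocyte-like cells, sebocyte-like ones included, made up 82.4% of NP, 49.7% of dpc16 and 73.0% of dpp42 cells. The sebocyte-like class held 171 NP, 557 dpc16 and 183 dpp42 cells. Of its 8 markers (Mgst1, Cidea, Cers4 and others), 7, 8 and 7 had a UMI, with only Plin5 at 0 in NP and dpp42. Above all other cells together stood 7, 8 and 6 of them. They were uneven within the class. In dpc16, Cidea and Cers4 stood at 1184 and 1914 CPM in its clusters 9 and 21, but at 21.4 and 83.7 in its clusters 6 and 14. Adipocyte markers were at or near 0 in the sebocyte-like class: Adipoq, Plin1, Cfd, Car3 and Lep had no UMI, and Retn stood at 0.240 CPM in dpc16 and 0 in NP and dpp42. Spinous-like cells numbered 348, 197 and 167, basal-like 257, 156 and 123, upper follicle-like 111, 425 and 109, bulge follicle-like 127, 220 and 144, and fibroblast-like 81, 833 and 86. Granular-like cells were few, at 14, 16 and 18, but deep, with median depths of 14546.5, 20059.5 and 20262.5 UMIs. Of the fibroblast-like cells in dpc16, 397 lay in cluster 23, led by Klk1 and other kallikreins, which held 1 NP and 2 dpp42 cells.

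Levels are given as CPM, that is, UMIs of the gene for every 1000000 UMIs in a class of 1 library, and intervals cover counting error only. No test was run, since a group is a single library, and no difference can be set against variation between animals. Since UMIs were read at the 3′ end, a level is compared between cells and not between genes. Sebocyte-like cells were the highest of 7 classes in all 3 libraries for 22 of the 34 measured genes, against a background of 8.58% of 11428 genes. These were 10 of 17 sterol genes, 10 of 14 measured fatty acid genes and 2 of 3 regulators. Granular-like cells were the highest in all 3 libraries for 5 genes, Elovl1, Mvk, Dgat2, Dhcr7 and Sc5d, against a background of 6.88%. Fads2, a desaturase of polyunsaturated fatty acids, had 9 UMIs over all kept cells and was not measured. Of the other pathway genes, 42 of 49 were measured, and sebocyte-like cells were highest in all 3 libraries for 23 of them.

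**Figure D1:**
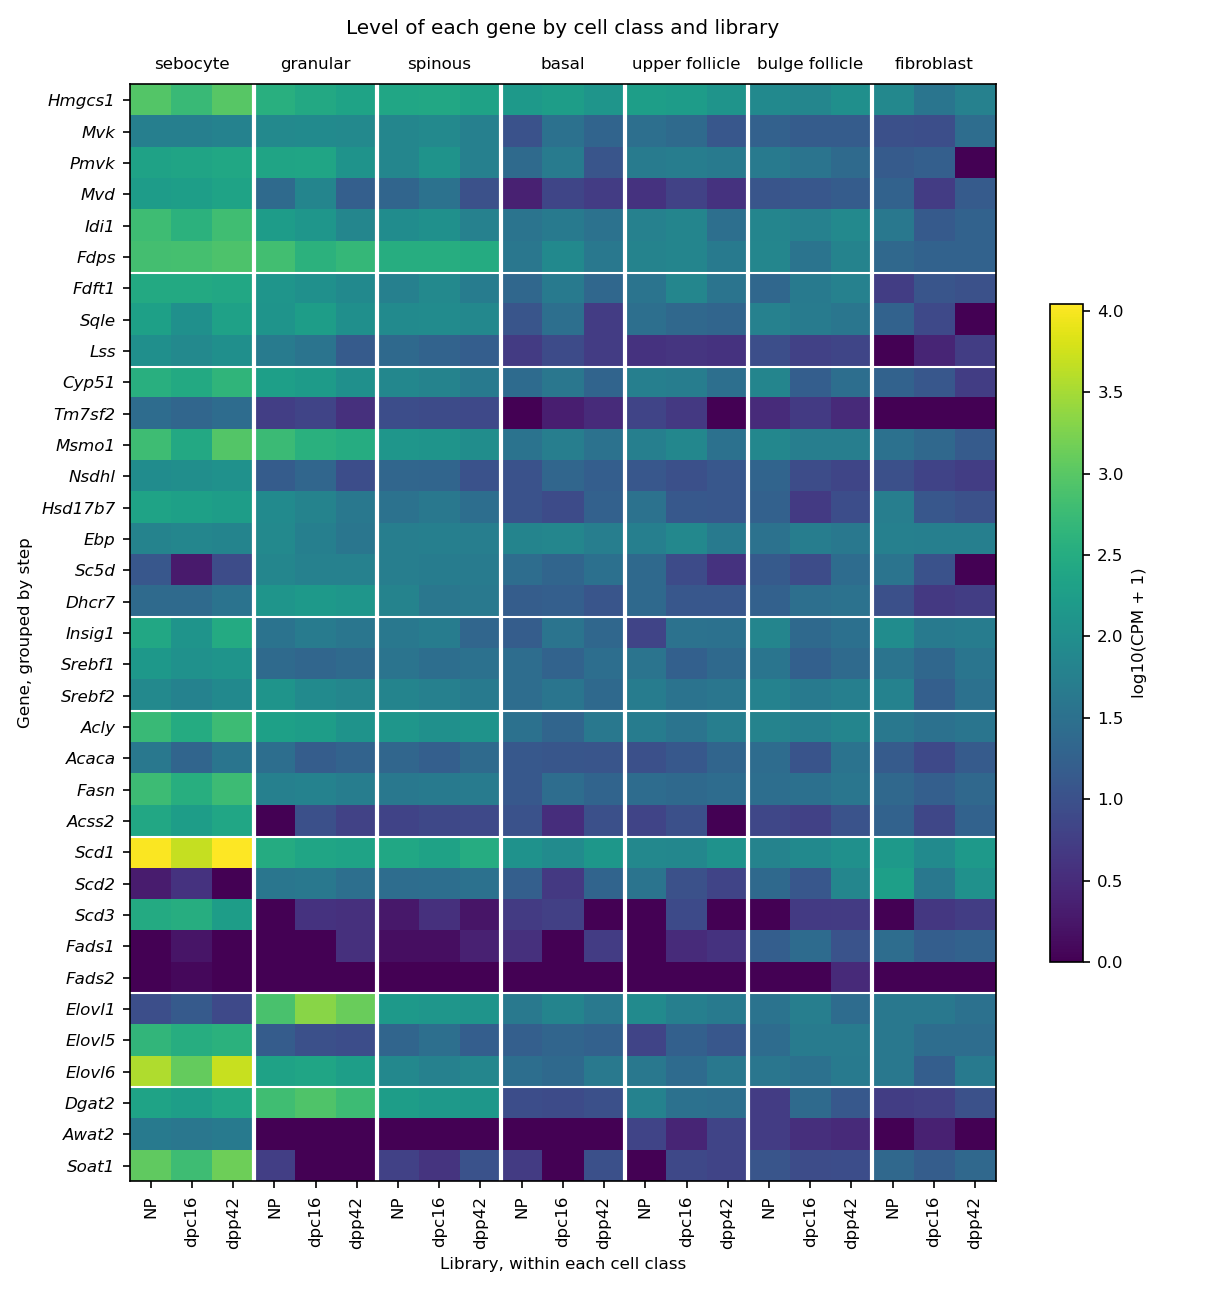
Level of each of the 35 genes (rows, grouped by step) in 7 cell classes and 3 libraries (columns), as log10(CPM + 1) on a colour scale. The 3 sebocyte-like columns at the left are the brightest for most genes, Elovl1 and Dgat2 are brightest in granular-like cells, and Scd2 and Fads1 are dark in sebocyte-like cells.

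Of the 6 mevalonate genes, 4 were highest in sebocyte-like cells in all 3 libraries. Hmgcs1, the synthase that opens the pathway, stood at 909 CPM in NP, 546 in dpc16 and 980 in dpp42 in sebocyte-like cells. Granular-like cells came next, at 350, 272 and 218 CPM, and sebocyte-like cells stood at 2.60, 2.0 and 4.49 times that level. In spinous-like cells Hmgcs1 stood at 245, 264 and 212, and in fibroblast-like cells at 75.5, 36.2 and 58.6 CPM. Idi1, the isopentenyl diphosphate isomerase, stood at 604, 399 and 643 CPM in sebocyte-like cells, between 3.06 and 8.05 times the next class. Fdps, which makes farnesyl diphosphate, was shared more evenly, at 679, 700 and 813 CPM in sebocyte-like, 657, 397 and 498 in granular-like and 335, 333 and 307 in spinous-like cells. In NP the first 2 of these classes did not differ beyond counting error. Mvd, a decarboxylase, had 80.4% of all its UMIs in sebocyte-like cells, at 170, 183 and 221 CPM. The kinase genes behaved otherwise: Pmvk stood at 214, 225 and 255 CPM in sebocyte-like and 227, 235 and 117 in granular-like cells. Mvk, whose 5 CCAAT boxes are shown above, stood at 54.6, 54.6 and 62.0 CPM in sebocyte-like cells, below 80.4, 84.0 and 79.9 CPM in granular-like cells and near the spinous-like level of 71.8, 79.6 and 57.1.

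The steps from squalene to cholesterol split between cell types. Squalene synthase (Fdft1) stood at 281, 280 and 269 CPM in sebocyte-like cells, and lanosterol synthase (Lss) at 101, 80.3 and 103. Both were highest there in each library. Squalene epoxidase (Sqle) stood at 197, 108 and 206 CPM in sebocyte-like and 123, 177 and 101 in granular-like cells, so the order of these 2 classes turned in dpc16, although in NP they were not separated by counting error. The order turned likewise for Msmo1, a sterol methyl oxidase, at 621, 274 and 900 CPM against 572, 365 and 314. In NP the 2 classes were not separated by counting error for Msmo1 either. Cyp51, the lanosterol demethylase, stood at 355, 281 and 444 CPM in sebocyte-like cells, Hsd17b7, a reductase, at 223, 200 and 178, and Nsdhl, a decarboxylating dehydrogenase, at 92.7, 99.0 and 109. All were highest there in the 3 libraries. Tm7sf2, a sterol reductase, was low throughout, at 25.8, 20.4 and 25.5 CPM in sebocyte-like cells and under 10 CPM in the other 6 classes.

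The last steps of cholesterol synthesis followed another order. Sc5d, the sterol desaturase that precedes the final reductase, stood at 11.3, 0.962 and 7.65 CPM in sebocyte-like cells and at 53.5, 49.6 and 47.5 in spinous-like cells. Sebocyte-like cells had the lowest level of 7 classes in NP and dpc16. Dhcr7, a reductase that completes cholesterol, stood at 23.7, 23.8 and 34.0 CPM in sebocyte-like, 128, 153 and 130 in granular-like and 64.6, 38.7 and 42.0 in spinous-like cells. Only 3.6% of Sc5d and 20.7% of Dhcr7 UMIs came from sebocyte-like cells, against 66.0% of Cyp51, 68.7% of Nsdhl and 73.0% of Hsd17b7 UMIs. Ebp, a sterol isomerase, stood between 31.9 and 80.4 CPM over the 7 classes and 3 libraries.

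Of the regulators, Insig1 and Srebf1 were highest in sebocyte-like cells in each library and Srebf2 was not. Insig1, itself a known SREBP target, stood at 261 CPM in NP, 121 in dpc16 and 300 in dpp42. In fibroblast-like cells it stood at 93.2, 43.4 and 49.6 CPM and in spinous-like cells at 39.9, 49.6 and 20.6. Srebf1, the SREBP gene tied to fatty acid synthesis, stood at 140, 111 and 124 CPM in sebocyte-like cells and between 16.5 and 36.2 CPM in the other 6 classes. Srebf2, tied to sterol synthesis, stood at 78.3, 61.5 and 83.3 CPM in sebocyte-like and 123, 84.0 and 71.9 in granular-like cells.

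Among the genes that make fatty acids, the precursor and synthase genes were highest in sebocyte-like cells. Acly, which yields acetyl-CoA from citrate, stood at 550, 312 and 589 CPM there and at 132, 104 and 118 in spinous-like cells. Fasn, the fatty acid synthase, stood at 584, 342 and 585 CPM, 10.3, 5.63 and 11.6 times the next class. Acss2, which yields acetyl-CoA from acetate, stood at 264, 175 and 250 CPM, and 88.5% of its UMIs came from sebocyte-like cells. Acaca, the acetyl-CoA carboxylase, was low, at 41.2, 19.7 and 36.5 CPM, and not separated from the next class by counting error in any library.

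The desaturases divided by cell type. Scd1, the main stearoyl-CoA desaturase (chromosome 19, 44394455 to 44407879, minus strand), stood at 10402 CPM in NP, 4918 in dpc16 and 11068 in dpp42 in sebocyte-like cells. It stood at 256, 214 and 316 CPM in spinous-like, 155, 85.8 and 153 in fibroblast-like and 113, 87.9 and 139 in basal-like cells. Scd3 (chromosome 19, 44203269 to 44244016), an isoform known from sebaceous glands, stood at 298, 328 and 177 CPM in sebocyte-like cells and at 7.0 CPM or less in the other 6 classes. Scd2 (chromosome 19, 44293674 to 44306864), which lies between these genes, showed the reverse order. It stood at 1.03, 2.88 and 0 CPM in sebocyte-like cells, the lowest of 7 classes in each library, and at 191, 40.0 and 108 CPM in fibroblast-like cells. The Scd genes are close copies, so how the authors' counting split shared reads between them is uncertain. Fads1, a desaturase of polyunsaturated fatty acids, stood at 26.6, 15.4 and 18 CPM in fibroblast-like cells and at 0, 0.721 and 0 in sebocyte-like cells. Genomic positions are of GRCm38, from GENCODE release M21.

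The elongases were set apart in the same way. Elovl6, which elongates palmitate and whose promoter above holds no CCAAT box, stood at 3687 CPM in NP, 1221 in dpc16 and 5138 in dpp42 in sebocyte-like cells, 17.3, 5.08 and 28.4 times the next class. Elovl5, which acts on polyunsaturated chains, stood at 466, 330 and 385 CPM there and at 47.9 CPM or less in the other 6 classes, but at 124, 90.1 and 110 in blood endothelial-like cells. Elovl1, which makes the very long chains of barrier ceramides, stood at 766, 2123 and 1339 CPM in granular-like and 147, 131 and 124 in spinous-like cells, but at 8.24, 13.2 and 6.80 in sebocyte-like cells. That was the lowest of 7 classes in each library.

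The esterification genes each had their own cells. Soat1, which forms cholesterol esters, stood at 1152 CPM in NP, 618 in dpc16 and 1405 in dpp42 in sebocyte-like cells, with 94.8% of its UMIs, and at 22.5 CPM or less in the other 6 classes. Awat2, a wax ester synthase, stood at 43.3, 39.4 and 45.9 CPM in sebocyte-like cells and had no UMI in granular-like, spinous-like and basal-like cells of any library. Dgat2, which completes triglycerides, stood at 633, 866 and 591 CPM in granular-like, 219, 184 and 242 in sebocyte-like and 174, 148 and 140 in spinous-like cells. In basal-like cells Dgat2 stood at 8.01, 7.33 and 8.55 CPM.

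Shares of cells with a UMI gave the same order at 1 depth. With every cell thinned to 1500 UMIs, Scd1 was read in 80.1% of NP, 68.2% of dpc16 and 77.6% of dpp42 sebocyte-like cells (91.8, 86.4 and 92.9% unthinned). In blood endothelial-like cells, used here to read free RNA, it was in 14.6, 13.3 and 18% after thinning (22.0, 28.9 and 34.8% unthinned). Median depths of these classes were 5389, 7316 and 5630 UMIs in sebocyte-like and 2450, 4160 and 3101 in blood endothelial-like cells. The thinned Scd1 shares of 14.8, 12.2 and 15.4% in basal-like cells lie within 3 percentage points of the endothelial-like ones and are read as background. In upper follicle-like cells the thinned Scd1 shares were 13.5, 9.18 and 15.6%, and in bulge follicle-like cells 14.96, 13.2 and 18.8%. These lie near or below the endothelial-like shares and are read in the same way. The Scd1 level in blood endothelial-like cells was itself 91.0 CPM in NP, 72.7 in dpc16 and 129 in dpp42. Soat1 was in 39.8, 40.0 and 42.6% of sebocyte-like cells and in 0, 1.56 and 3.37% of blood endothelial-like cells, both thinned. For Elovl1 the thinned share was 57.1, 93.8 and 88.9% in granular-like cells and 2.34, 1.80 and 0% in sebocyte-like cells, against 4.88, 7.81 and 5.62% in blood endothelial-like cells.

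Within the sebocyte-like class, the levels differed steeply between its clusters. Cluster 6 was led by cell division genes such as Top2a, cluster 14 by Slpi and Akr1c18, cluster 9 by Bex1 and Psph, with the lipid droplet gene Plin2 among its leading genes, and cluster 21 by Cyp2g1 and Serpina3b, with Scd3, Elovl6 and Scd1 among its leading genes although they took no part in the clustering. Per cluster the sterol genes summed, for NP, dpc16 and dpp42, to 1238, 475 and 905 CPM in cluster 14, to 3495, 3079 and 3662 in cluster 9 and to 8942, 7977 and 8872 in cluster 21. The fatty acid genes summed to 2188, 554 and 1092 CPM in cluster 14, to 12863, 5942 and 11558 in cluster 9 and to 36733, 21701 and 36019 in cluster 21. The fatty acid sum of cluster 21 was thus 16.8 times that of cluster 14 in NP (95% interval 15.2 to 18.6), 39.2 times in dpc16 (36.1 to 42.6) and 33.0 times in dpp42 (29.2 to 37.4). The sterol sum differed less, by 7.22, 16.8 and 9.80 times. Cluster 6 had fatty acid sums of 779, 592 and 628 CPM, below cluster 14 in NP and dpp42 and near it in dpc16. Its sterol sums were 650, 608 and 992 CPM, below cluster 14 in NP and above it in dpc16, while in dpp42 the counting intervals of the 2 clusters overlap. The clusters made up like parts of the class in each library: cluster 21 was 28.1% of NP, 27.5% of dpc16 and 31.7% of dpp42 sebocyte-like cells, and cluster 14 was 28.1, 31.6 and 32.8%.

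**Figure D2:**
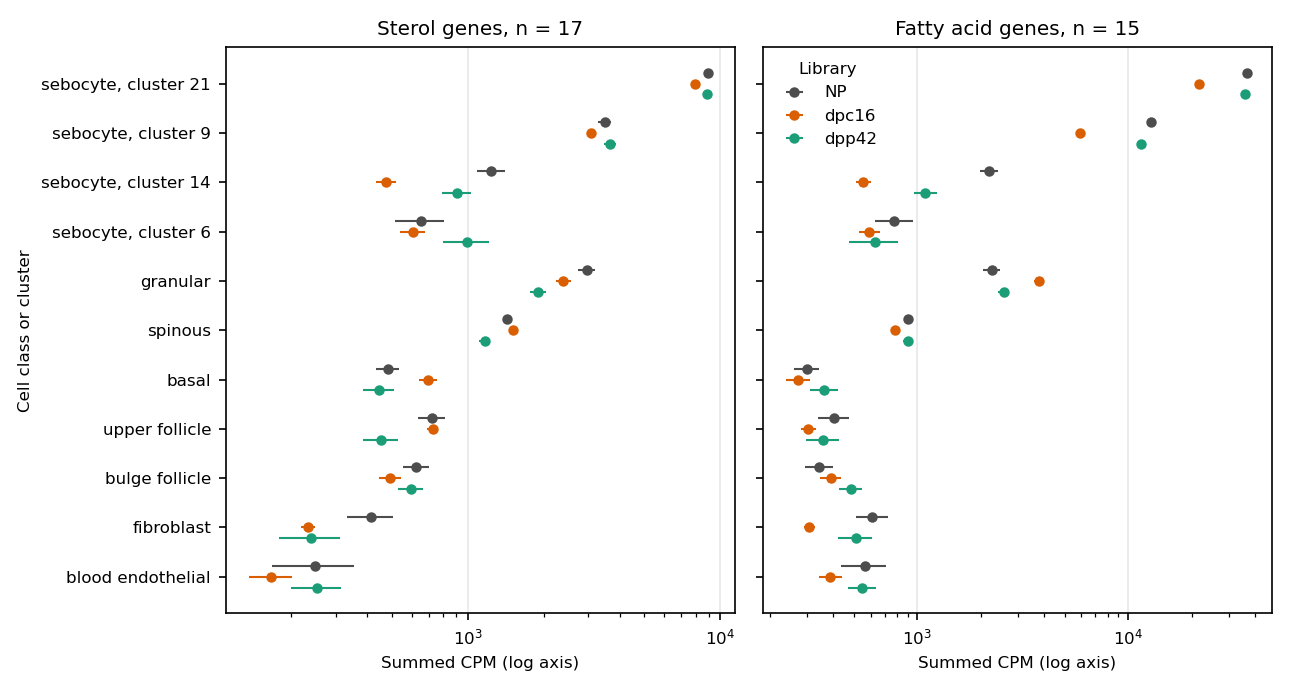
Summed CPM (log axis) of the 17 sterol genes (left) and the 15 fatty acid genes (right) in the 4 sebocyte-like clusters and 7 other classes, 1 point per library with its exact Poisson 95% interval. Clusters 21 and 9 stand to the right of all other cells for the fatty acid genes, and the dpc16 points of clusters 21, 9 and 14 lie to the left of NP and dpp42.

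Single cells spread widely around these sums. In cluster 21 the fatty acid genes took a median of 375 of every 10000 UMIs per cell in NP, with a range of 182 to 730. The median was 219 in dpc16, with a range of 70.3 to 673, and 373 in dpp42, with a range of 135 to 738. The ranges overlap over most of their width. In cluster 9 the medians were 112, 54.5 and 84.3. For the sterol genes the medians of cluster 21 were 86.9, 77.1 and 90.2 of 10000 UMIs, closer together than those of the fatty acid genes. In cluster 9 the sterol medians were 22.5, 28.0 and 31.0, so the median dpc16 cell there lay above the median NP cell although the sum over all its cells lay below.

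**Figure D3:**
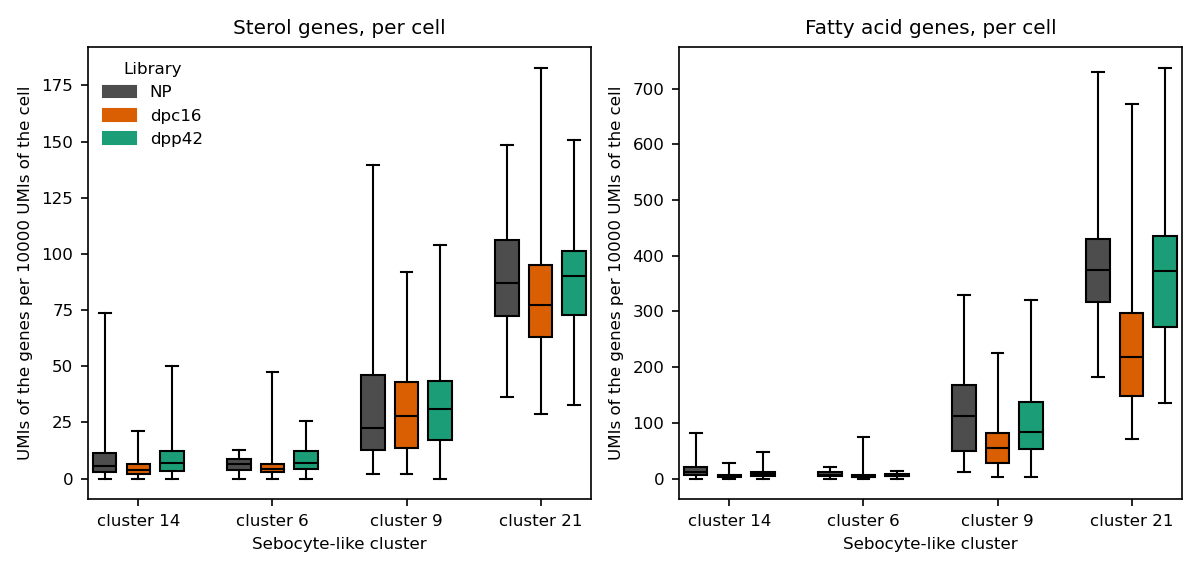
UMIs of the sterol genes (left) and fatty acid genes (right) per 10000 UMIs of each cell, by sebocyte-like cluster and library, on linear axes. Boxes span the quartiles with the median as a line, and whiskers reach the lowest and highest cell. The dpc16 boxes of the fatty acid genes in clusters 9 and 21 sit lowest, with medians of 54.5 and 219.

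In the epidermis-like cells, both branches were higher in spinous-like and granular-like than in basal-like cells. The sterol sum of basal-like cells was 482 CPM in NP, 695 in dpc16 and 445 in dpp42, against 1437, 1516 and 1167 in spinous-like cells and 2955, 2392 and 1895 in granular-like cells. Spinous-like cells stood at 2.98 (95% interval 2.68 to 3.33), 2.18 (2.0 to 2.39) and 2.62 (2.27 to 3.04) times basal-like cells. The fatty acid sum was 299, 272 and 361 CPM in basal-like, 906, 786 and 904 in spinous-like and 2255, 3782 and 2566 in granular-like cells. At least 1.5 times the basal-like level in all 3 libraries was reached in spinous-like cells by 22 of 34 genes, against a background of 7.96%, and by 14 of 17 sterol genes. In sebocyte-like cells it was reached by 28 of 34, against 11.4%. Within the spinous-like class, cluster 11, led by Krt77 and Krt10, stood at 2.03, 2.53 and 2.51 times cluster 10, led by Mt4 and Krt1, for the sterol sum. Hmgcs1, Nsdhl and Ebp were the sterol genes that did not reach 1.5 times, with Hmgcs1 already at 153, 177 and 128 CPM in basal-like cells. Basal-like cells reached at least 1.5 times the fibroblast-like level in all 3 libraries for 5 of 34 genes, Fdps, Pmvk, Dhcr7, Fdft1 and Hmgcs1, which is below the background of 18.9%.

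Stages were then compared within each class, since the mix of classes differed: sebocyte-like cells were 171 of 1062 keratinocyte-like cells in NP, 557 of 1814 in dpc16 and 183 of 789 in dpp42. A gene was measured if either library reached 10 CPM and both together 20 UMIs. It was called higher or lower if the CPMs differed by 1.5-fold or more and the 95% counting interval of their ratio left out 1. Over all keratinocyte-like cells together, 4 of 32 measured genes were higher and 5 lower in dpc16 than in NP (backgrounds 8.32% and 22.5%), 3 higher and none lower in dpp42 than in NP (4.31% and 2.93%), and 7 higher and 1 lower in dpp42 than in dpc16 (23.2% and 7.97%). Elovl6 was lower in the first of these and higher in the others.

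In sebocyte-like cells, 12 of 31 measured genes were lower in dpc16 than in NP and none was higher, against backgrounds of 14.8% lower and 7.04% higher over 7231 genes. The 12 were 7 of 12 fatty acid genes, 4 of 16 sterol genes and the regulator Insig1. The median log2 ratio was -0.68 over the fatty acid genes, -0.09 over the sterol genes and -0.16 over all measured genes. The sum of fatty acid genes was 17716 CPM in NP and 8505 in dpc16, a ratio of 0.480 (95% interval 0.471 to 0.489), and without Scd1 the ratio was 0.490. The sterol sum was 4626 and 3546 CPM, a ratio of 0.767 (0.741 to 0.793). With at most 5% mitochondrial UMIs per cell the fatty acid ratio was 0.310, and with each cell weighted equally 7 genes were lower in place of 12. These dpc16 cells also stood apart in other respects: heat shock genes summed to 19527 CPM against 9451 in NP and 9099 in dpp42, the median mitochondrial share was 6.40% against 5.49 and 5.58%, and the median depth was the highest of the 3. The part of these in the lower levels was not tested.

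Of the 12 lower genes Elovl6 was furthest apart, 3.02-fold lower in dpc16 than in NP (95% interval 2.89 to 3.15). Among the other fatty acid genes Scd1 was 2.12-fold lower (2.07 to 2.17) and Soat1 1.86-fold (1.74 to 2.0). Fasn was 1.71-fold lower, Acly 1.76-fold and Acaca 2.09-fold, the last from few UMIs (1.4 to 3.09). Acss2, at 1.51-fold lower, was at the size limit and past it under 6 of 15 other settings, as was Idi1. Their neighbours in the same branch were not past the rule: Dgat2 stood at a ratio of 0.839, Awat2 at 0.911 and Scd3 at 1.10.

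Over the whole class the sterol genes did not move as a block. Msmo1 was 2.27-fold lower in dpc16 (95% interval 2.05 to 2.51), Sqle 1.83-fold (1.53 to 2.17), Hmgcs1 1.67-fold (1.54 to 1.80) and Idi1 1.51-fold (1.37 to 1.66). Insig1, which restrains SREBP, was 2.16-fold lower (1.85 to 2.51). The other 12 measured sterol genes were not past the rule. Of these, Mvk had a ratio of 0.999, Pmvk 1.05, Mvd 1.07, Fdps 1.03, Fdft1 0.997, Nsdhl 1.07, Ebp 1.11 and Dhcr7 1.00. Lss, Cyp51 and Tm7sf2, which act between or beside Sqle and Msmo1, had lower ratios of 0.795, 0.791 and 0.793, and Hsd17b7 had 0.899. The CCAAT box was found for each gene of both groups that had a promoter entry. Srebf1 (0.789) and Srebf2 (0.786) were not past the rule.

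Within clusters 21 and 9 the fatty acid sum lay further below NP than the sterol sum did. In cluster 21 the fatty acid sum had a ratio of 0.591 (95% interval 0.578 to 0.604) and in cluster 9 of 0.462 (0.445 to 0.480), whereas the sterol sum had 0.892 (0.856 to 0.929) and 0.881 (0.824 to 0.942). Elovl6 stood at 7126 CPM in NP and 3273 in dpc16 in cluster 21, and at 3485 and 751 in cluster 9. Scd1 stood at 21800 and 12450 CPM in cluster 21, and at 7082 and 3531 in cluster 9. Msmo1, Insig1 and Soat1 were past the rule in cluster 21 (ratios 0.495, 0.498 and 0.549) and not in cluster 9 (0.796, 0.699 and 0.867); the difference between clusters was not tested. Hsd17b7 and Elovl5 were higher in dpc16 in cluster 9, with ratios of 1.61 and 1.68, but not in cluster 21, where they stood at 0.917 and 0.798.

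With clusters 6 and 14 pooled, where the levels are lower, the sterol sum was lower in dpc16 as well. These clusters held 71 NP and 241 dpc16 cells. The sterol sum was 1003 CPM in NP and 518 in dpc16, a ratio of 0.516 (95% interval 0.452 to 0.590). For the fatty acid sum the ratio was 0.348 (0.312 to 0.389), and without Scd1 it was 0.550 (0.452 to 0.672), an interval that overlaps that of the sterol sum. The sterol sum of cluster 14 was 1238 CPM in NP (1084 to 1408) and 475 in dpc16 (434 to 518). In cluster 6 it was 650 CPM in NP (517 to 808) and 608 in dpc16 (541 to 680), so no sterol difference is read there. The fatty acid intervals of cluster 6 overlap as well, at 632 to 950 CPM in NP and 526 to 663 in dpc16. Of 23 genes measured in the pooled clusters, 15 were lower and none was higher, against backgrounds of 12.5% lower and 5.09% higher. They were 7 of 11 sterol genes, 6 of 9 fatty acid genes, Insig1 and Srebf1. Fdps stood at 96.2 CPM in NP and 46.7 in dpc16, Fdft1 at 83.3 and 35.7, Cyp51 at 86.5 and 30.5 and Dgat2 at 70.5 and 32.5, each from 22 to 30 NP UMIs. These genes, with Lss and Srebf1, were not past the rule over the whole class. Heat shock genes summed to 28034 CPM in these dpc16 cells against 10832 in NP, and their part was not tested.

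**Figure D4:**
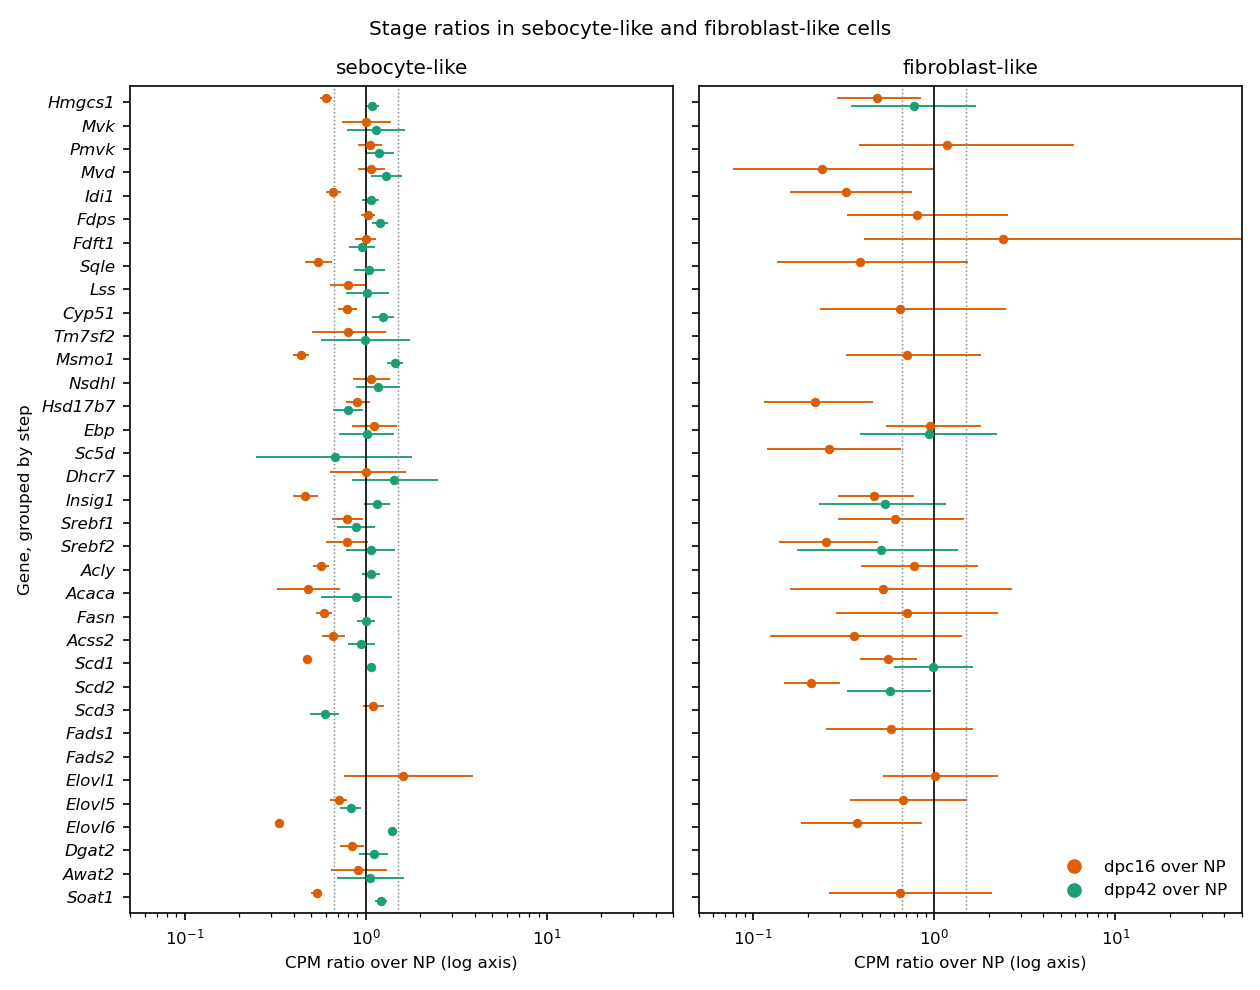
CPM ratio over NP (log axis) of each measured gene in sebocyte-like (left) and fibroblast-like (right) cells, for dpc16 and dpp42, with 95% counting intervals. Dotted lines mark ratios of 1.5 either way, and genes without a point were not measured. The dpc16 interval of Fdft1 in fibroblast-like cells runs past the right edge. In sebocyte-like cells Elovl6 lies furthest to the left for dpc16 at 0.331, and all dpp42 points but that of Scd3, at 0.594, lie within the dotted lines.

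The other genes of these pathways, listed beside the 35, were compared likewise in dpc16 against NP in sebocyte-like cells. Of 38 measured, 11 were lower and 4 higher, against backgrounds of 14.8% lower and 7.04% higher. The count of higher genes was near its background. Elovl4, an elongase of very long chains, stood at 3058 CPM in NP and 927 in dpc16, a ratio of 0.303. The fatty acid CoA ligase genes went both ways, with Acsl4 at 490 and 210 CPM but Acsl1 at 7.21 and 44.0. Lpin1 and Dgat1, which act on the way to triglycerides, were higher, with ratios of 1.74 and 1.51, and Fads6 was the other gene higher. Elovl3, Acacb, Hacd3, Acsl3, Gpam, Agpat2, Awat1 and Far1 were among the others lower.

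Over the whole sebocyte-like class, day 42 after birth lay near NP. Of 31 measured genes, 1 was lower in dpp42 than in NP and none was higher, against backgrounds of 2.56% lower and 3.17% higher. The 1 gene was Scd3, at 177 against 298 CPM, or 1.68-fold lower (95% interval 1.4 to 2.02). The fatty acid sum had a ratio of 1.12 (1.10 to 1.15) and the sterol sum of 1.15 (1.11 to 1.19), and both directions turned with at most 5% mitochondrial UMIs, to 0.794 and 0.857. In cluster 21 the sums stood at 0.981 and 0.992. Elsewhere in the class the fatty acid sum lay below NP. Its ratio was 0.593 (0.513 to 0.683) in clusters 6 and 14 pooled and 0.899 (0.859 to 0.940) in cluster 9. Without Scd1 the ratio of clusters 6 and 14 was 0.821 (0.639 to 1.05). The sterol ratios were 0.926 (0.788 to 1.09) in clusters 6 and 14 and 1.05 (0.964 to 1.14) in cluster 9. Against dpc16, 12 of 31 genes were higher in dpp42 and Scd3 was lower, against backgrounds of 17.7% higher and 7.58% lower. Elovl6 was 4.21 times as high (4.05 to 4.37), Msmo1 3.29 times (3.02 to 3.58) and Insig1 2.48 times (2.16 to 2.85). The comparisons share libraries, so they are not independent of each other.

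In spinous-like cells the sterol genes were the ones that differed, and mainly in dpp42. Of 28 measured genes, 6 were lower in dpp42 than in NP and none was higher, against backgrounds of 5.1% lower and 2.19% higher. They were 5 of 16 sterol genes and Insig1. Cyp51 stood at 74.7 CPM in NP and 45.4 in dpp42, Idi1 at 92.2 and 59.2, Dhcr7 at 64.6 and 42.0, Insig1 at 39.9 and 20.6, Nsdhl at 20.4 and 9.64, and Mvd at 19.5 and 8.95. The sterol sum had a ratio of 0.812 (95% interval 0.765 to 0.861) and the fatty acid sum of 0.998 (0.931 to 1.07). In dpc16 against NP, Pmvk (117 against 69.7 CPM) and Mvd (32.2 against 19.5) were higher and Dhcr7 (38.7 against 64.6) was lower, against backgrounds of 5.84% higher and 26% lower. The sterol sum then had a ratio of 1.05 (1.01 to 1.11), which turned to 0.973 when the members took part in the clustering, beside a median log2 ratio of -0.30 over all measured genes. In dpp42 against dpc16, 7 of 28 genes were lower and none was higher, against backgrounds of 7.62% lower and 21.7% higher. Elovl5, at 15.1 against 28.7 CPM, was the fatty acid gene among them, and Pmvk, at 56.4 against 117, and Fdft1, at 48.9 against 78.3, were the sterol genes not yet named for dpp42.

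In basal-like cells the genes that passed the rule in dpc16 against NP were higher, and the sterol sum with them. Of 22 measured genes, 6 were higher in dpc16 than in NP and none was lower, against backgrounds of 7.42% higher and 13.3% lower. Fdps stood at 38.7 CPM in NP and 80.6 in dpc16, Pmvk at 24 and 47.6, and Fdft1 at 21.4 and 44.0. Mvk stood at 9.34 and 31.8 CPM, Sqle at 10.7 and 29.3 and Insig1 at 14.7 and 35.4, each from few NP UMIs. Under other settings Pmvk was past the rule in 7 of 14, and Fdft1 and Insig1 in 7 of 13. The sterol sum had a ratio of 1.44 (95% interval 1.26 to 1.65), while the fatty acid sum had 0.911 (0.753 to 1.10). Heat shock genes were higher in these dpc16 cells as well, at 13573 against 6815 CPM, and the median depth was 4391 against 2486 UMIs. Their part was not tested. The cells also lay in different clusters by stage: cluster 8, led by cell division genes such as Top2a, held 58 of 257 NP and 64 of 156 dpc16 basal-like cells. In cluster 8 the sterol sum had a ratio of 1.41 (1.17 to 1.70). In the larger cluster 7, led by haemoglobin genes and Ccl27a, it had 1.13 (0.917 to 1.39), an interval that includes 1, and the difference between clusters was not tested. No gene of 18 measured was past the rule in dpp42 against NP, where the backgrounds were 3.43% higher and 3.04% lower. In dpp42 against dpc16, Pmvk (10.7 against 47.6 CPM), Fdps (40.6 against 80.6) and Sqle (4.28 against 29.3) were lower, and Acly (40.6 against 19.5) and Scd1 (139 against 87.9) higher, against backgrounds of 7.92% lower and 13.3% higher. Acly was past the rule under 6 of 13 other settings. Scd1 differed by as much in the blood endothelial-like cells used to read free RNA, at 129 against 72.7 CPM (ratio 1.78, 95% interval 1.13 to 2.77), so no change in basal-like expression is read from it.

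**Figure D5:**
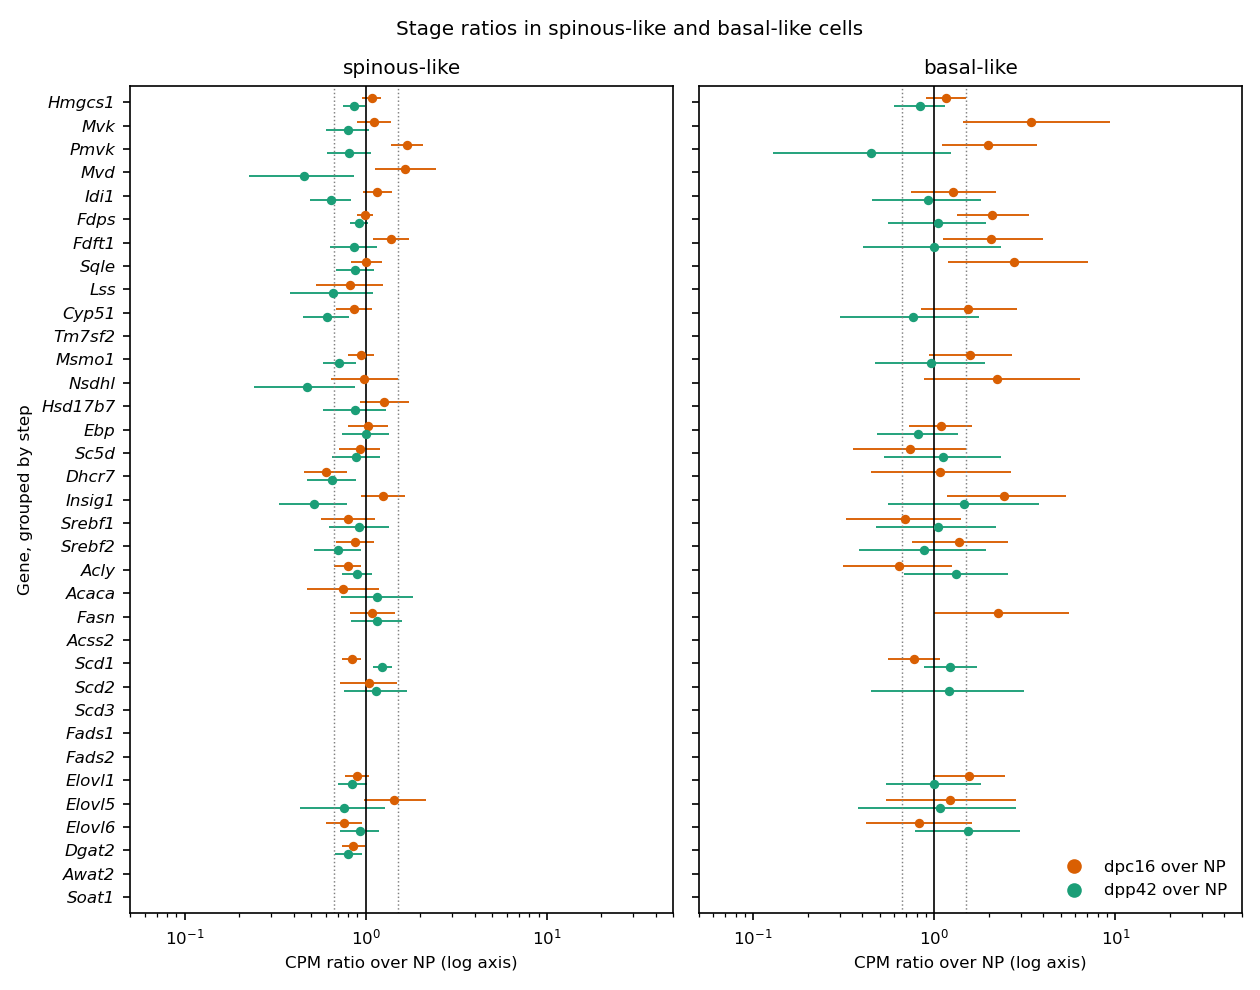
CPM ratio over NP (log axis) of each measured gene in spinous-like (left) and basal-like (right) cells, for dpc16 and dpp42, with 95% counting intervals and dotted lines at 1.5 either way. In basal-like cells the dpc16 points of the sterol genes lie mostly to the right of 1, with Mvk at 3.40, and in spinous-like cells the dpp42 points of Mvd and Nsdhl lie furthest to the left, at 0.458 and 0.473.

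In the follicle-like classes genes differed in both directions. In upper follicle-like cells, Insig1 (32.3 against 5.85 CPM, from 2 NP UMIs) and Fdft1 (70.0 against 35.1) were higher in dpc16 than in NP. Hsd17b7, Dgat2, Sc5d and Scd2 were lower, Dgat2 at 30.7 against 61.4 CPM and Scd2 at 9.16 against 35.1. These were 2 higher and 4 lower of 26, against backgrounds of 5.18% and 11.6%. In bulge follicle-like cells, Fdft1 (45.6 against 21.3 CPM) and Dgat2 (24.1 against 4.26, from 2 NP UMIs) were higher and Fdps, Cyp51, Insig1 and Srebf1 lower, of 23, against backgrounds of 10.7% and 7.72%. Cyp51 stood at 15.2 against 68.1 CPM and Insig1 at 22.8 against 68.1. Heat shock genes summed to 24479 CPM in dpc16 against 10464 in NP in upper follicle-like cells, and to 29383 against 11171 in bulge follicle-like cells. Immediate early genes, which respond within minutes to stimulation, summed to 44561 against 13935 CPM in the latter. The part of these was not tested. In dpp42 against NP, upper follicle-like cells were lower in Hmgcs1 (121 against 187 CPM) and Elovl1 (43.3 against 84.9), of 15 measured, and no gene was higher, against backgrounds of 2.71% lower and 4.77% higher. The sterol sum of upper follicle-like cells was 720 CPM in NP and 453 in dpp42, a ratio of 0.629 (95% interval 0.512 to 0.772), against 1.01 (0.879 to 1.16) in dpc16. Bulge follicle-like cells were higher in Fdft1, Scd1 and Scd2 and lower in Cyp51 and Insig1, of 21, against 5.3% and 4.48%. Scd1 stood there at 63.9 CPM in NP and 108 in dpp42, at or below the 91.0 and 129 CPM of blood endothelial-like cells, and no change in expression is read from it. Scd2 stood there at 69.9 CPM in dpp42, 23.4 in NP and 11.4 in dpc16.

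Between dpp42 and dpc16 the upper follicle-like cells were lower in Idi1 (28.8 against 69.5 CPM), Msmo1 (31.7 against 74.3), Fdft1 (34.6 against 70.0) and Ebp (43.3 against 75.4, past the rule under 6 of 14 other settings). Scd1 was higher (115 against 72.7), but again not above the blood endothelial-like level of 129 and 72.7 CPM. These were 4 lower and 1 higher of 24, against backgrounds of 4.57% and 14.7%. The sterol sum was 453 against 726 CPM, a ratio of 0.624 (95% interval 0.526 to 0.737). Bulge follicle-like cells were higher in Fdps (63.9 against 35.5 CPM), Acaca (33.9 against 10.1) and Scd2 and lower in Elovl1 (26.0 against 51.9), of 23, against 9.76% and 10.8%. The direction turned under another setting for Fdps, to between 0.687 and 0.971, and for Acaca, to 0.984.

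In fibroblast-like cells, where the levels are low, both branches were lower in dpc16 than in NP. Of 26 measured genes, 10 were lower and none was higher, against backgrounds of 15.3% lower and 6.25% higher. The median log2 ratio was -0.88 over these genes and -0.26 over all measured genes. Scd2 stood at 191 CPM in NP, 40.0 in dpc16 and 108 in dpp42. It was 4.78-fold lower in dpc16 (95% interval 3.32 to 6.75). Hsd17b7 stood at 53.3 CPM in NP and 11.7 in dpc16, and Srebf2 at 62.2 and 15.7. Insig1 (93.2 against 43.4 CPM), Scd1 (155 against 85.8), Hmgcs1 (75.5 against 36.2), Idi1, Sc5d, Elovl6 and Mvd were the others, with Mvd past the rule under 6 of 13 other settings. The dpc16 level of Scd1 lies near the 72.7 CPM of blood endothelial-like cells. Its NP level lies above their 91.0 CPM, which rests on 11 UMIs. The part of free RNA in the Scd1 difference was not tested. No change in expression is read from it, although Scd1 is counted among the 10. The sterol sum was 413 CPM in NP and 233 in dpc16, a ratio of 0.565 (0.455 to 0.707), and the fatty acid sum 613 and 307, a ratio of 0.502 (0.420 to 0.603). With median-of-ratios size factors 6 genes were lower in place of 10, and with cells thinned to 1500 UMIs 5. Since 81 NP cells carry these values, most NP sums rest on few UMIs. Heat shock genes summed to 12357 CPM in dpc16 against 6037 in NP, and the median depth was 4198 against 2655 UMIs. Their part was not tested. Cluster 23 holds dpc16 cells almost alone, but the sterol sum was also 405 CPM in NP and 254 in dpc16 in cluster 4, and 432 and 259 in cluster 5. The fatty acid sum was 484 and 271 CPM in cluster 4, and 879 and 393 in cluster 5. In dpp42 against NP, 6 genes were measured and Scd2 alone was lower, against a background of 8.26%. The sterol sum was as low as in dpc16, at 239 CPM, with a ratio to NP of 0.579 (0.405 to 0.819), while that of the fatty acid sum was 0.831 (0.643 to 1.07). In dpp42 against dpc16, Scd1 (153 against 85.8 CPM), Scd2, Elovl6 (45.1 against 14.9) and Mvk (27.0 against 8.26) were higher of 24, against a background of 18.6%. Mvk was past the rule under 6 of 14 other settings. Scd1 differed by as much in blood endothelial-like cells, at 129 against 72.7 CPM (ratio 1.78), so no change in fibroblast-like expression is read from it. Elovl6, like Scd1, was highest in sebocyte-like cells, where dpc16 was the lowest library. The part of free RNA in its fibroblast-like values at any stage was not tested.

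Over the 29 sums of class and library with at least 20 cells, the members of each branch varied together to unequal degrees. On the log2(CPM + 10) scale, Pearson's r of a sterol gene with the sum of the other sterol genes was 0.96 for Fdps, 0.95 for Msmo1 and 0.94 for Idi1, but 0.46 for Ebp and 0.13 for Sc5d. Of the fatty acid genes, Elovl6 had 0.96, Acss2 and Scd1 0.93, and Elovl1, Scd2 and Fads1 stood at -0.54, -0.37 and -0.32. Of all other genes with at least 50 CPM in 1 of these sums, Adtrp (0.93), Hacd2, Tecr and Aldh3b2 were among the closest to the sterol sum. Hsdl2, Sdr42e1, Fasn, Pank1 and Tkt followed. Gm13178 (0.95), Panx3, C130079G13Rik, Acoxl and Awat1 came closest to the fatty acid sum, and Elovl3, Cidea, Adig and Clstn3 were among the next. These points share libraries and are a description of the classes, with Cidea itself a marker used to name sebocyte-like cells.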

How the data were processed

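The authors deposited, for each library, a filtered 10x matrix of UMI counts per gene and cell, made with Cell Ranger 2.2.0 and mm10 per the submitters' processing notes. Tissue was dissociated in 0.25% trypsin for 30 min and passed through filters of 40 and 20 µm, per the labels' protocols. Of 6648 barcodes, 6022 with at least 200 genes and at most 10% mitochondrial UMIs were kept, and 626 were left out. Kept cells were clustered with Scanpy 1.11.5 (Leiden, resolution 1, 2000 variable genes, 30 components, 15 neighbours) without the members and other pathway genes, and named from marker lists. Haemoglobin genes were left out of naming, a choice made after the clusters were seen. Scrublet marked 1, 2 and 1 cells and so did not work here; doublets were not removed. Counts were summed per class and library. Intervals are exact Poisson for levels, exact conditional binomial for ratios and Clopper-Pearson for shares. They cover counting error only. Deposited totals were 6031814 UMIs in NP, 21679047 in dpc16 and 5794940 in dpp42.

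A member was described value by value with at least 50 CPM in 1 library of a class of at least 50 cells, or when past the size rule. Other pathway genes were counted and named where past that rule in the class described, and so were those among the 10 genes most like each branch sum; some of these genes are not reported here. Members and lists were chosen with earlier results of these data known. Alternatives changed the cell filters, clustering, class rule, scaling, depth and size threshold. The scripts were tested on simulated data.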

Additional observations from a re-analysis of the deposited data

Results flagged for a closer look

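Several genes were past the size rule in opposite directions in different classes. The difference between classes was not tested, and each class has 1 library per stage. The share of all genes with opposite calls between classes was not computed, so these cases have no background beside them. In dpc16 against NP, Mvd had a ratio of 1.65 in spinous-like and 0.240 in fibroblast-like cells. Fdps had 2.08 in basal-like and 0.505 in bulge follicle-like cells, and Sqle 2.75 in basal-like and 0.547 in sebocyte-like cells. Insig1 had 2.41 in basal-like and 5.52 in upper follicle-like cells, but 0.464 in sebocyte-like, 0.335 in bulge follicle-like and 0.466 in fibroblast-like cells. Dgat2 had 5.65 in bulge follicle-like and 0.50 in upper follicle-like cells. The Insig1 ratio of 5.52 and the Dgat2 ratio of 5.65 each rest on few NP UMIs. In dpp42 against NP, Scd2 had 2.98 in bulge follicle-like and 0.567 in fibroblast-like cells.

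In dpp42 against dpc16, Idi1 had a ratio of 1.61 in sebocyte-like, 0.555 in spinous-like and 0.415 in upper follicle-like cells. Fdps had 1.80 in bulge follicle-like and 0.504 in basal-like cells, but the direction of the 1.80 turned under 3 of 13 other settings. Sqle had 1.91 in sebocyte-like and 0.146 in basal-like cells, and Msmo1 3.29 in sebocyte-like and 0.427 in upper follicle-like cells. Insig1 had 2.48 in sebocyte-like and 0.416 in spinous-like cells.

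Barcodes left out for over 10% mitochondrial UMIs were rich in sebocyte genes. Scd1 stood at 8109 UMIs per 1000000 non-mitochondrial UMIs in the 40 NP, 8057 in the 458 dpc16 and 8840 in the 112 dpp42 barcodes, against 1935, 1172 and 2681 in kept cells. Mgst1, a sebocyte marker, stood at 2956, 4733 and 3013 against 1033, 1272 and 1322.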

How the results depend on the processing

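Each group has 1 library, so leaving one out was not possible, and intervals do not cover variation between animals. No paired analysis was possible because each group has 1 library. Recomputations are counted once for each result and setting, so a result is counted several times. Of the recomputed sums and counts, 169 stayed within their limits, 59 moved and 6 turned. Of the recomputed calls of a gene in a class and comparison, 1039 were kept, 278 were no longer past the size rule and 4 turned. The cause was not tested in any case.

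The fatty acid sum of sebocyte-like cells in dpc16 against NP (0.480) stayed below 1 throughout. It was 0.310 with at most 5% mitochondrial UMIs, 0.522 with at most 20%, 0.528 with classes set by marker UMIs, 0.539 with size factors, 0.556 with cells weighted equally, 0.548 with shared clusters weighted equally, 0.559 after thinning, 0.520 in clusters 9 and 21 and 0.490 without Scd1. The sterol sum (0.767) was, in the same order up to the clusters, 0.568, 0.823, 0.839, 0.861, 0.852, 0.847, 0.855 and 0.840. The 12 lower genes became 7 with cells weighted equally and 5 with a ratio of at least 2.

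In dpp42 against NP the fatty acid sum (1.12) turned to 0.794 with at most 5% mitochondrial UMIs, 0.961 with cells weighted equally, 0.938 with shared clusters weighted equally and 0.956 after thinning. It was 1.07 at resolution 0.5, with members in the clustering and in clusters 9 and 21, 1.10 at resolution 2 and 1.21 without Scd1. The sterol sum (1.15) turned to 0.857 with at most 5% mitochondrial UMIs and was 1.03, 1.01 and 1.05 with the weightings and thinning, 1.09 at resolution 0.5 and with members in the clustering, and 1.10 in clusters 9 and 21.

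The sterol sum of spinous-like cells in dpc16 against NP (1.05) turned to 0.973 with members in the clustering. It was 1.18 and 1.13 with at most 5% and 20% mitochondrial UMIs, 1.30 with size factors and 1.13 at resolution 2. In dpp42 against NP (0.812) it was 0.863, 0.906, 0.869 with marker classes and 0.753 after thinning. In basal-like cells the dpc16 ratio (1.44) was 1.15 with at most 5% mitochondrial UMIs and 1.11 with marker classes, and the dpp42 ratio (0.923) was 0.734 with haemoglobin genes in naming. In fibroblast-like cells size factors gave 0.713 for the sterol sum (0.565) and 0.633 for the fatty acid sum (0.502), and the 10 lower genes became 6, or 5 after thinning.

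Sebocyte-like over basal-like cells, the sterol sums of NP, dpc16 and dpp42 had ratios of 9.60, 5.10 and 11.9, and 6.63, 3.26 and 5.71 with at most 5% mitochondrial UMIs. In dpc16 it was 5.82 with at most 20%, 6.83 with marker classes, 6.17 at resolution 0.5, 6.28 with members in the clustering and 3.86 with haemoglobin genes in naming, which gave 7.07 in NP. The fatty acid sum was 59.3, 31.2 and 55.1, and 31.4, 11.6 and 23.8 with at most 5% mitochondrial UMIs. In dpc16 it was 36.4 at resolution 2 and 37.0 with haemoglobin genes in naming. In bulge follicle-like cells, dpp42 against dpc16, Fdps (1.80) turned to 0.971 and 0.687 with at most 5% and 20% mitochondrial UMIs and to 0.885 with marker classes, and Acaca (3.35) to 0.984 with marker classes. The size factors moved the median of all genes in dpc16 against NP by 0.17 on the log2 scale in sebocyte-like, 0.30 in spinous-like, 0.23 in upper follicle-like and 0.34 in fibroblast-like cells. Haemoglobin naming, at most 20% mitochondrial UMIs, clusters 9 and 21 and the sum without Scd1 were chosen after seeing the data.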

Other observations

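Blood endothelial-like cells also carried some fatty acid genes. For NP, dpc16 and dpp42, Elovl5 stood there at 124, 90.1 and 110 CPM, and Scd2 at 116, 66.4 and 71.1. Their fatty acid sum was 562, 387 and 549 CPM and their sterol sum 248, 166 and 252. Cluster 2, left unnamed and led by haemoglobin and follicle genes, had a sterol sum of 1037, 568 and 481 CPM. Cluster 18, left unnamed and led by Coch, Fmod and Tnmd, had 457, 292 and 364.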
